A study of Mus musculus with 22 samples.

Results

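The 10 genes described here govern the G1 phase of the cell cycle, the stretch in which a resting or newly divided cell commits to another round of DNA replication or stays arrested. They were taken by symbol as Ccnd1, Ccnd2 and Ccnd3 (the D-type cyclins), Cdk4 and Cdk6 (the kinases those cyclins activate), Cdkn1a, Cdkn1b and Cdkn2c (inhibitors of cyclin-dependent kinases), Rb1 (the retinoblastoma protein, the kinases' substrate) and Myc (a transcription factor that drives growth). All 10 were among the 55414 genes of the count table, and all 10 were among the 17554 genes with enough counts to be tested. The lowest count of any of them in a library was 24. The calls differed by day. One day after surgery the fibroblasts of mice with an expander held less Ccnd1, Ccnd3 and Cdkn2c and more Cdkn1a than those of mice without one. On days 2 and 4 Cdk4 was higher and Cdkn1a was lower with the expander, and Ccnd2 was lower on day 2.

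The cells were skin fibroblasts sorted from mice that had all been operated on. EXP mice received an expander hydrogel under the back skin near the neck, and CTRL mice had the same operation without an expander. Of the 22 libraries, 9 were from day 1 (4 CTRL, 5 EXP), 6 from day 2 (3 of each arm) and 7 from day 4 (4 CTRL, 3 EXP), with totals of 21461294 to 30210204 counts. The labels give no strain, sex, age or genetic change, and every comparison is between operated mice. The labels number the libraries within a group and do not say how many mice went into each, so a p-value here measures only the spread between these libraries, which may be technical.

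The sorted cells were live, negative for CD31, CD45, CD117 and EpCAM, and positive for CD34 and PDGFRα, per the labels. Their defining transcripts were present in every library, and levels are given as CPM (counts scaled to the TMM-adjusted size of the library). Pdgfra was at 225 to 416 CPM in CTRL and 299 to 1018 CPM in EXP, and was higher in every EXP library than in every CTRL library on days 1 and 2. Cd34 was at 1279 to 2336 CPM in CTRL and 215 to 1572 CPM in EXP, and was lower in every EXP library than in every CTRL library on those days. Of the proteins sorted against, the transcripts reached 0.246 CPM for Ptprc (CD45), 0.687 CPM for Kit (CD117), 2.07 CPM for Epcam and 3.73 CPM for Pecam1 (CD31). The 7 fibroblast markers of the list used, 3 of them collagen genes, summed to 199562 to 398008 CPM in CTRL libraries and to 59145 to 273655 CPM in EXP libraries, Pdgfra among them going the other way on days 1 and 2. Scaling by plain totals in place of TMM moved the median log2 fold change of all tested genes from 0.01 to 0.21 on day 1, from 0.03 to 0.49 on day 2 and from 0.06 to 0.36 on day 4. A set of 191 genes also set 7 libraries apart, namely 3 CTRL and 2 EXP of day 1 and 2 CTRL of day 4. The set was Rnf10 and the genes that correlated with it above 0.9 in log2 CPM over these libraries, once group means were removed. The libraries were split at the largest gap in the mean log2 CPM of the set, 0.64, with those 7 on the high side. The split was thus drawn from these same data. Values within 1 side of it are given beside the members called on those days. The 5 immune markers summed to 2.07 to 12.8 CPM in CTRL and 13.4 to 34.1 CPM in EXP. Among them Ptprc and Itgam were at or under 3 counts in every library of both arms on day 1. The same held on day 2 for Itgam in CTRL and Ptprc in EXP, and on day 4 for both in CTRL and Itgam in EXP. The 4 endothelial markers summed to at most 9.47 CPM outside EXP on day 4, where they reached 22.9 to 52.3 CPM. On day 1 the 5 keratinocyte markers summed to 7.25 to 40.3 CPM in CTRL and 2.13 to 13.1 CPM in EXP, and the 4 pericyte and smooth muscle markers to 7.61 to 21.3 CPM and 5.56 to 8.64 CPM. The part of these marker differences in the results was not tested. Since these are bulk samples, fewer cells of a type and less RNA per cell cannot be told apart.

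As background, D-type cyclins are made in response to growth factors and attachment, and they bring Cdk4 and Cdk6 to the retinoblastoma protein. Phosphorylation of that protein releases E2F factors, which switch on cyclin E and the genes of DNA replication. The Cip/Kip inhibitors Cdkn1a and Cdkn1b act on cyclin-bound kinases, Cdkn1a being a classical target of p53, and the Ink4 inhibitor Cdkn2c binds Cdk4 and Cdk6 themselves. Myc pairs with Max on E-box sequences and promotes ribosome production and nucleotide synthesis, and Mxd proteins compete for the same partner. In skin, dermal fibroblasts divide rarely at rest and re-enter the cycle after wounding or stretch.

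On day 1, 4 of 10 passed the threshold, an adjusted p under 0.05 in edgeR's quasi-likelihood test, 1 higher and 3 lower in EXP, where 28.5% of all tested genes did (13.6% higher and 14.9% lower). On day 2, 3 of 10 passed, 1 higher and 2 lower, against 13.5% of all tested genes (7.85% higher and 5.62% lower). On day 4, 2 of 10 passed, 1 higher and 1 lower, against 22.6% of all tested genes (13.6% higher and 8.96% lower). Libraries of both arms did not overlap for 3 members on day 1, 8 on day 2 and 2 on day 4, where 23.9%, 39.3% and 25.9% of all tested genes did not overlap. The members' median log2 fold change was -0.36 on day 1, -0.32 on day 2 and -0.11 on day 4, beside the medians of all tested genes given above. Cdk6, Cdkn1b, Myc and Rb1 passed on no day in the main edgeR fit, with TMM scaling and all 22 libraries. Within 1 side of the split the uncalled members Ccnd2, Cdk6, Cdkn1b, Rb1 and Myc stood at -0.13, 0.23, -0.62, -1.18 and -0.15 on day 1 and at -0.29, 0.56, -0.56, -0.97 and 0.26 on day 4, with 0 of them past the threshold in these edgeR fits and 1, Rb1 on day 1, at an unadjusted p under 0.05.

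**Figure D1:**
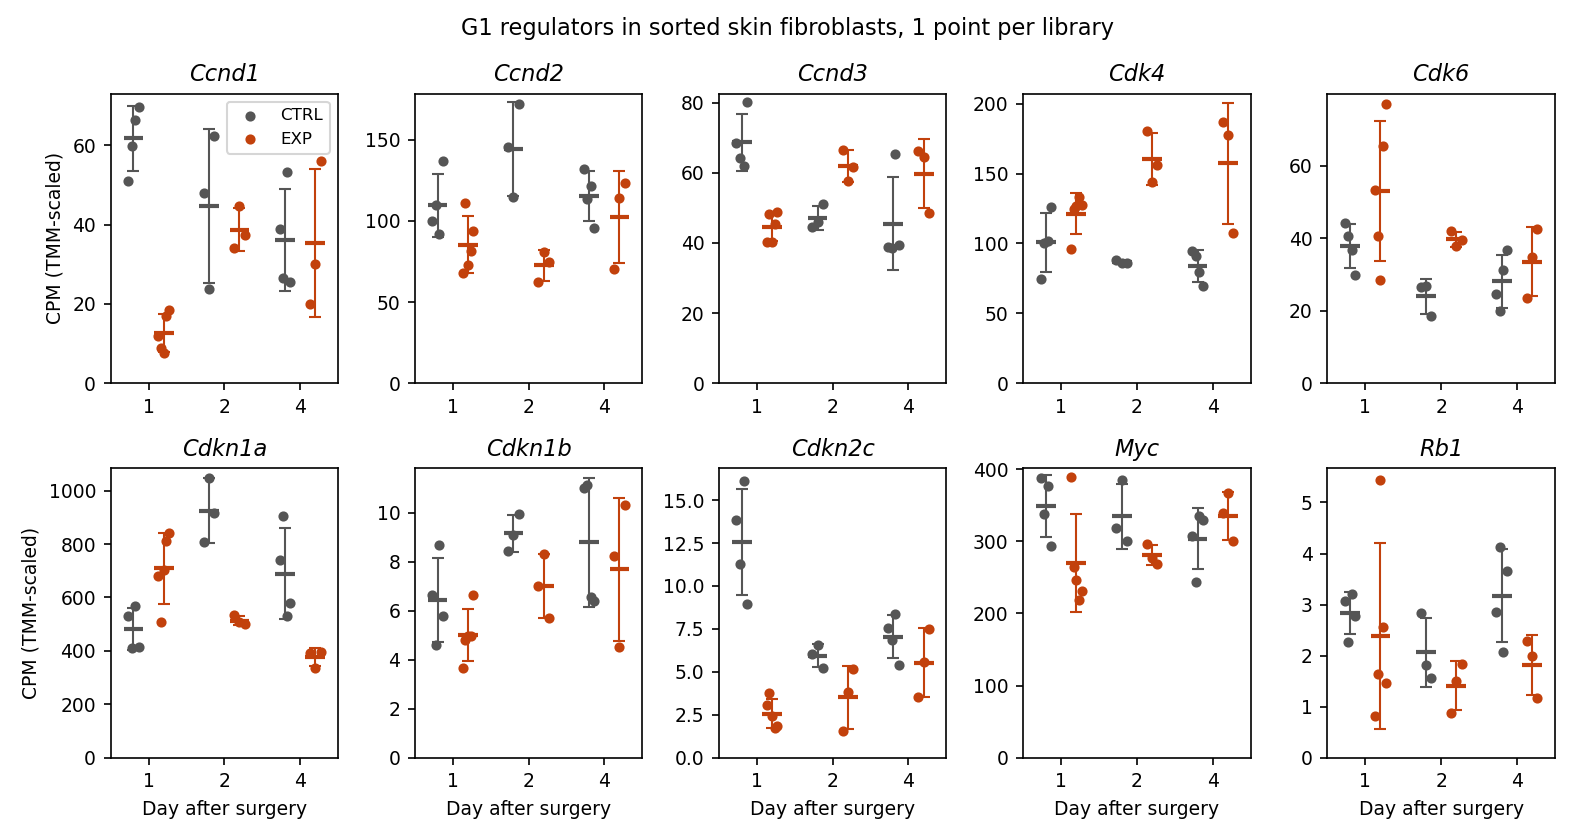
TMM-scaled CPM of the 10 members (vertical axes, each from 0) against the day after surgery, with 1 point per library, CTRL in grey and EXP in orange, horizontal bars for group means and error bars for 1 SD. Ccnd1 and Cdkn2c of EXP lie below all CTRL libraries on day 1, Cdk4 of EXP lies above all CTRL libraries on days 2 and 4, and Cdkn1a of EXP lies below all CTRL libraries on days 2 and 4.

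The size of the difference between EXP and CTRL itself depended on the day for 4 of 10 members, namely Ccnd1, Ccnd3, Cdkn1a and Cdkn2c, in the joint test of the 3 daily differences, which 8.64% of all tested genes passed. Set against day 1, the difference had moved by day 2 for 3 members (3.03% of all tested genes) and by day 4 for 4 members (13.2%). Between days 2 and 4 it moved for 0 members in edgeR (1 at an unadjusted p under 0.05) and for 0% of all tested genes. Within EXP, 2 of 10 members changed over the days, Ccnd1 and Cdkn1a, against 14.1% of all tested genes. Within CTRL, 0 of 10 passed in the main edgeR fit (3 at an unadjusted p under 0.05, with 2 called by DESeq2 and 3 by limma voom), against 0.302% of all tested genes. Between days 2 and 4, 0 members moved within either arm in edgeR (0.444% of all tested genes in EXP and 0.0057% in CTRL; 2 and 1 members at an unadjusted p under 0.05). These tests share libraries with the comparisons of single days and are not independent of them.

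Ccnd1 (ENSMUSG00000070348), which encodes cyclin D1, was lower in every EXP library of day 1. The 4 CTRL libraries of day 1 held 51.1, 59.9, 66.4 and 69.7 CPM and the 5 EXP libraries held 12.0, 8.85, 7.56, 16.9 and 18.4 CPM. The arms were far apart, with means of 61.8 ± 8.20 CPM (SD, n = 4) and 12.7 ± 4.78 CPM (SD, n = 5). The log2 fold change was -2.28 (SE 0.32, edgeR adjusted p 5.23e-05), or 0.206 times the CTRL level. The call held under all 9 other settings and in all 9 fits that left out 1 library of day 1, and the difference was -2.48 (adjusted p 0.00295) when only the high side of the split, 3 CTRL against 2 EXP, was fitted.

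On day 2 Ccnd1 was at 48.0, 23.9 and 62.4 CPM in CTRL and 34.0, 44.8 and 37.4 CPM in EXP, and on day 4 at 39.0, 26.6, 53.3 and 25.7 CPM in CTRL and 19.9, 30.0 and 56.0 CPM in EXP. The arms overlapped on both days, and the log2 fold changes were -0.21 (SE 0.39, edgeR adjusted p 0.773) and -0.03 (SE 0.36, edgeR adjusted p 0.958). Within EXP, Ccnd1 rose from day 1 to day 2 by 1.60 on the log2 scale (SE 0.34, edgeR adjusted p 0.0123, a step that 2.81% of all tested genes made in either direction). The EXP difference moved by 2.07 between days 1 and 2 (SE 0.50, edgeR adjusted p 0.0299).

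Ccnd3 (ENSMUSG00000034165), which encodes cyclin D3, fell less on day 1. It was at 68.4, 64.2, 61.8 and 80.2 CPM in CTRL and 40.3, 48.3, 40.4, 45.5 and 48.8 CPM in EXP. The arms did not overlap, and the log2 fold change was -0.62 (SE 0.15, edgeR adjusted p 0.00479). With plain library totals in place of TMM the day 1 difference was -0.42 and no longer passed (adjusted p 0.0922), and on the high side of the split it was -0.52 (adjusted p 0.131). Over all 9 other settings the adjusted p ran from 0.00116 to 0.131.

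On day 2 Ccnd3 stood on the other side, at 44.4, 45.8 and 51.0 CPM in CTRL and 66.5, 57.6 and 61.8 CPM in EXP. The arms did not overlap, but the log2 fold change of 0.40 (SE 0.19, edgeR adjusted p 0.174) did not pass. It did pass with plain library totals (0.87, adjusted p 0.00835) and with limma voom (0.39, adjusted p 0.0456). On day 4 it was at 38.7, 38.6, 65.2 and 39.5 CPM in CTRL and 66.2, 64.6 and 48.5 CPM in EXP, 0.39 (SE 0.18, edgeR adjusted p 0.109). The single high CTRL library, replicate 3, overlapped EXP, and without it the day 4 difference passed (adjusted p 0.0106), as it did without EXP replicate 3 (adjusted p 0.0440) and with plain library totals (0.73, adjusted p 0.0130). The change of the EXP difference from day 1 was 1.02 to day 2 (SE 0.24, edgeR adjusted p 0.0277) and 1.01 to day 4 (SE 0.23, adjusted p 0.00841). Part of this turn lay in CTRL, where Ccnd3 averaged 68.7 ± 8.16 CPM (SD, n = 4) on day 1, 47.1 ± 3.44 CPM (SD, n = 3) on day 2 and 45.5 ± 13.2 CPM (SD, n = 4) on day 4, a change that did not pass (edgeR adjusted p 0.138). Bysl, a ribosome assembly gene on the other strand, shares 4.11% of the exon bases of Ccnd3 and was higher in EXP on all 3 days (log2 fold changes of 0.79, 0.91 and 0.53), and whether the counting used strand is not given in the sources used here.

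Ccnd2 (ENSMUSG00000000184), which encodes cyclin D2, was the D-type cyclin called lower in EXP than in CTRL on day 2. It was at 145, 115 and 172 CPM in CTRL and 62.1, 81.0 and 74.5 CPM in EXP. The arms were apart, with a log2 fold change of -0.99 (SE 0.23, edgeR adjusted p 0.00687), or 0.503 times the CTRL level, and all 8 other settings and all 6 fits without 1 library of day 2 kept the call. With plain library totals the difference was smaller, -0.53 (edgeR adjusted p 0.0380). On day 1 Ccnd2 ranged over 91.7 to 137 CPM in CTRL and 67.7 to 111 CPM in EXP, -0.36 (SE 0.18, edgeR adjusted p 0.150), and on day 4 over 95.5 to 132 CPM and 70.1 to 123 CPM, -0.18 (SE 0.21, edgeR adjusted p 0.581). That the 3 daily differences of Ccnd2 are unequal did not pass (adjusted p 0.169). From day 1 to day 2 Ccnd2 changed by -0.23 within EXP (SE 0.20, edgeR adjusted p 0.592) and by 0.40 within CTRL (SE 0.21, edgeR adjusted p 0.395). Neither change passed.

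Because the 3 D-type cyclins bind the same kinases, their levels were also set side by side per exon length, as RPKM (CPM per kilobase of exon). Ccnd1 made up 40.3 ± 3.76% of the summed D-type cyclin RPKM in CTRL on day 1 (SD, n = 4) and 16.0 ± 4.98% in EXP (SD, n = 5). Ccnd2 took 35.6 ± 2.77% and 53.6 ± 4.96% of the sum in those groups. The sum itself was 32.6 ± 4.06 RPKM (SD, n = 4) in CTRL and 16.9 ± 2.61 RPKM (SD, n = 5) in EXP. In these descriptive values the EXP pool of day 1 was smaller, and more of it was Ccnd2.

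On day 2 the Ccnd1 share was 30.4 ± 6.90% in CTRL and 35.7 ± 2.53% in EXP (SD, n = 3 each). The Ccnd2 share of day 2 was 51.2 ± 2.74% in CTRL and 33.4 ± 2.25% in EXP, the reverse order of day 1, and the Ccnd3 share was 18.4 ± 4.18% and 30.9 ± 4.41%. The sums of day 2 were 30.2 ± 7.45 RPKM (SD, n = 3) in CTRL and 23.0 ± 1.64 RPKM (SD, n = 3) in EXP. By day 4 the arms had nearly equal sums, 25.1 ± 5.16 RPKM (SD, n = 4) and 25.2 ± 5.65 RPKM (SD, n = 3). The shares depend on the exon length assigned to each gene: with the longest transcript in place of all exons the Ccnd1 share on day 1 was 32.1 ± 3.38% in CTRL and 11.9 ± 3.82% in EXP. In the GENCODE M21 annotation, 23.4% of the exon bases of Ccnd1 also lie in LTO1 on the other strand, and LTO1 was at 8.31 CPM in CTRL and 8.90 CPM in EXP on day 1, with no call (adjusted p 0.735).

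**Figure D2:**
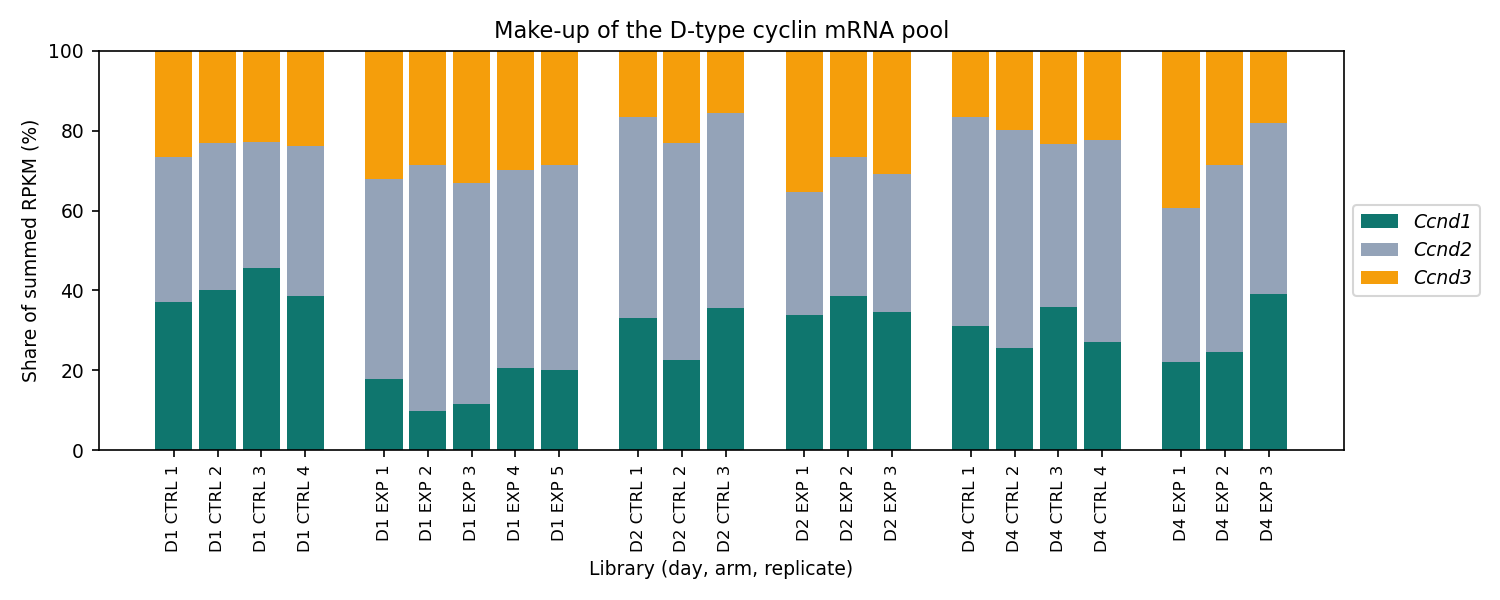
Share of the summed RPKM of Ccnd1, Ccnd2 and Ccnd3 held by each gene (vertical axis, percent) in each of the 22 libraries, ordered by day, arm and replicate. The Ccnd1 share lies between 9.80% and 20.6% in the 5 EXP libraries of day 1 and between 37.1% and 45.6% in the 4 CTRL libraries of that day.

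Cdk4 (ENSMUSG00000006728), the kinase partner of all 3 D-type cyclins, was higher in EXP than in CTRL on the later days. On day 1 the CTRL libraries held 74.6, 100.5, 102 and 126 CPM and the EXP libraries 95.8, 125, 127, 133 and 127 CPM. The arms overlapped and the log2 fold change was 0.27 (SE 0.17, edgeR adjusted p 0.245). On day 2 Cdk4 was at 87.9, 86.1 and 86.1 CPM in CTRL and 180.4, 144 and 156 CPM in EXP, a log2 fold change of 0.89 (SE 0.21, edgeR adjusted p 0.00730). On day 4 it was at 94.5, 91.3, 79.7 and 69.5 CPM in CTRL and 187, 178 and 107 CPM in EXP, 0.91 (SE 0.19, edgeR adjusted p 0.00285). Within EXP the change from day 1 was 0.40 to day 2 (SE 0.18, edgeR adjusted p 0.234) and 0.37 to day 4 (SE 0.18, edgeR adjusted p 0.156). Neither passed.

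No EXP library of day 2 or day 4 reached down to a CTRL library in Cdk4, and EXP stood at 1.85 times CTRL on day 2 and 1.88 times CTRL on day 4. With plain library totals the day 2 log2 fold change was 1.36. The day 2 call was lost without EXP replicate 1 (adjusted p 0.0564), and the day 4 call was lost when only the 7 libraries of that day were fitted (0.87, adjusted p 0.0548) or only the low side of the split, 2 CTRL against 3 EXP (0.73, adjusted p 0.272). Over the other settings the adjusted p ran from 3.36e-04 to 0.00926 on day 2 and from 2.56e-04 to 0.272 on day 4. That the daily differences of Cdk4 are unequal did not pass (adjusted p 0.144), though it did without EXP replicate 3 of day 4 (adjusted p 0.0316).

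That EXP replicate 3, the lowest of its group in Cdk4, also held the most adipocyte marker RNA. The 4 adipocyte markers Adipoq, Plin1, Cidec and Cfd summed to 1.76, 114 and 345 CPM in the 3 EXP libraries of day 4, to 52.7, 3.45 and 2.48 CPM in those of day 2, and to at most 12.8 CPM in any CTRL library. Adipoq, the defining one, was at 0, 17.0 and 54.0 CPM in the EXP libraries of day 4. The EXP library of day 2 with the highest sum, replicate 1, was the highest of its group in Cdk4, at 180.4 CPM. On day 4 EXP replicate 2, with a sum of 114 CPM, held 178 CPM of Cdk4. The 7 fibroblast markers summed to 273655 CPM in EXP replicate 3 of day 4. They summed to 76412 and 155703 CPM in the other EXP libraries of that day and to 236057 to 346607 CPM in CTRL. The part of adipocytes or their RNA in the values of Cdk4 was not tested. Of the exon bases of Cdk4, 19.7% also lie in Tspan31 on the other strand, and Tspan31 averaged 69.0 CPM in EXP and 82.2 CPM in CTRL on day 4, with no call on any day.

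Cdk6 (ENSMUSG00000040274), the other kinase partner, did not pass in the main edgeR fit on any day. On day 2 it was at 26.6, 27.0 and 18.5 CPM in CTRL and 41.9, 37.8 and 39.5 CPM in EXP. These libraries did not overlap, yet the log2 fold change of 0.73 (SE 0.30, edgeR adjusted p 0.110) missed the threshold, and it passed in limma voom with quality weights, with plain library totals and in the fit of day 2 alone (adjusted p 0.00560 to 0.146 over the 8 other settings). The differences on day 1 (0.48, SE 0.24, edgeR adjusted p 0.146) and day 4 (0.25, SE 0.28, edgeR adjusted p 0.541) had overlapping arms, the day 1 one passing with plain library totals (0.69, adjusted p 0.0357) and without EXP replicate 3 (adjusted p 0.0404). The EXP libraries of day 1 spread widely, from 28.4 to 77.0 CPM. Per exon length Cdk4 exceeded Cdk6 in every group, at 48.4 RPKM against 2.40 RPKM in EXP on day 4.

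The promoters of both kinases are shown because their letters differ in the E-box, the site bound by Myc with Max. The 250 bases before the RefSeq start of each gene (build GRCm38.p6, chr10:127063285-127063534, plus strand, and chr5:3343643-3343892, plus strand) were searched on both strands for the E-box CACGTG, the GC box GGGCGG, the E2F motifs TTTCCCGC and TTTGGCGC, the AP-1 motif TGACTCA and the cyclic AMP response element TGACGTCA. Capitals mark the matches, and a GC box on the other strand reads as CCGCCC.
Cdk4: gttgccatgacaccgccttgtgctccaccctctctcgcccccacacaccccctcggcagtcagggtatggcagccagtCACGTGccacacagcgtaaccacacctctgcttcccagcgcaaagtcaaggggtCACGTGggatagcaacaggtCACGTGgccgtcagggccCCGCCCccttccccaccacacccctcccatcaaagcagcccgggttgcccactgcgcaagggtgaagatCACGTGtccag
Cdk6: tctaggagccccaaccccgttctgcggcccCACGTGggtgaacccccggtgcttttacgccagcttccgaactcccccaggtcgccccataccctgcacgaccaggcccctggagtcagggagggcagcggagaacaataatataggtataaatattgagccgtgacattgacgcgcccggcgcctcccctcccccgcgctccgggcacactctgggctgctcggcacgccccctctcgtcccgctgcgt
The Cdk4 stretch held 4 E-boxes and 1 GC box, and the Cdk6 stretch held 1 E-box. At least 1 E-box was present in 6.02% of 32851 such promoters and 4 or more in 7 of them, or 0.0213%, while a GC box was present in 32.7%. The cut of 4 was set to the number found in Cdk4, so its share describes that number and is not a test. The other motifs, in 0.895%, 0.417%, 4.46% and 1.55% of promoters in the order given, matched neither stretch. The authors' files are on another build, so these coordinates are RefSeq's and a match is a description of letters only.

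Cdkn1a (ENSMUSG00000023067), which encodes the inhibitor p21, changed sides. On day 1 it was at 529.6, 412, 566 and 416 CPM in CTRL and 679.6, 509, 703, 812 and 841 CPM in EXP. All but 1 EXP library lay above all CTRL libraries, and the log2 fold change was 0.56 (SE 0.17, edgeR adjusted p 0.0197). This call was lost in 3 of the 9 fits without 1 library (without CTRL replicate 2, CTRL replicate 4 or EXP replicate 5, the highest adjusted p being 0.0673), with the library split as a covariate (0.43, adjusted p 0.0698) and on the high side of the split (0.26, adjusted p 0.491). Over all 9 other settings its adjusted p ran from 0.00689 to 0.491.

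On day 2 Cdkn1a was at 806, 1048 and 918 CPM in CTRL and 533, 509 and 499 CPM in EXP. On day 4 the CTRL libraries held 739.7, 906, 532 and 579 CPM and the EXP libraries 393, 337 and 397 CPM. Every EXP library lay below every CTRL library of its day, with log2 fold changes of -0.85 (SE 0.21, edgeR adjusted p 0.0113) and -0.88 (SE 0.20, edgeR adjusted p 0.00516). With plain library totals neither fall passed (-0.39 with adjusted p 0.275 on day 2, -0.57 with adjusted p 0.0775 on day 4). The day 2 call was also lost without CTRL replicate 2 (adjusted p 0.0580), and on day 4 it was lost in the fit of that day alone (adjusted p 0.0557) and on the low side of the split (-1.16, adjusted p 0.152).

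The difference of Cdkn1a moved by -1.41 from day 1 to day 2 (SE 0.27, edgeR adjusted p 0.00755) and by -1.44 from day 1 to day 4 (SE 0.27, adjusted p 0.00212). Both arms took part. EXP fell from day 1 to day 4 by 0.92 on the log2 scale (SE 0.19, edgeR adjusted p 0.00277, where 18.8% of all tested genes were called). CTRL rose from day 1 to day 2 by 0.94 (SE 0.19, edgeR adjusted p 0.0376, where 0.313% of all tested genes were called), although the joint test over the 3 CTRL days did not pass (adjusted p 0.0627).

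Cdkn2c (ENSMUSG00000028551), which encodes an Ink4 inhibitor of Cdk4 and Cdk6, fell about as far as Ccnd1 on day 1. CTRL libraries held 13.9, 11.3, 16.1 and 8.96 CPM and EXP libraries 3.09, 3.76, 2.42, 1.72 and 1.87 CPM. The arms were far apart, with a log2 fold change of -2.29 (SE 0.31, edgeR adjusted p 3.06e-05), or 0.205 times CTRL. All 9 other settings and all 9 fits without 1 library kept this call, the high side of the split included (-1.98, adjusted p 0.00771).

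On day 2 Cdkn2c was at 6.06, 6.56 and 5.23 CPM in CTRL and 1.58, 3.81 and 5.19 CPM in EXP, and on day 4 at 7.54, 6.86, 8.34 and 5.40 CPM and 3.52, 5.59 and 7.51 CPM. The log2 fold changes of -0.76 (SE 0.37, edgeR adjusted p 0.192) and -0.35 (SE 0.35, edgeR adjusted p 0.499) did not pass. CTRL and EXP did not overlap on day 2 but did on day 4. Within EXP, Cdkn2c rose from day 1 to day 4 by 1.10 on the log2 scale (SE 0.33, edgeR adjusted p 0.0227, in the step where 18.8% of all tested genes were called), while the joint test over the 3 EXP days did not pass (adjusted p 0.0637). Within CTRL the change from day 1 to day 4 was -0.84 (SE 0.32, edgeR adjusted p 0.246), which did not pass. The CTRL means were 12.6, 5.95 and 7.04 CPM on days 1, 2 and 4. The difference between the arms had moved by 1.94 from day 1 to day 4 (SE 0.46, edgeR adjusted p 0.00963). The joint test of the 3 daily differences passed at 0.0200 but not without CTRL replicate 3 of day 1 (adjusted p 0.0535).

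The upstream 250 bases of these inhibitors, from RefSeq on GRCm38.p6, are shown for the starts that hold a searched motif, since the genes took opposite directions on day 1. They are the second of 2 listed starts of Cdkn1a (chr17:29093519-29093768, plus strand) and the first of 2 of Cdkn2c (chr4:109666757-109667006, minus strand), each read 5′ to 3′ along its gene, with the matches in capitals.
Cdkn1a: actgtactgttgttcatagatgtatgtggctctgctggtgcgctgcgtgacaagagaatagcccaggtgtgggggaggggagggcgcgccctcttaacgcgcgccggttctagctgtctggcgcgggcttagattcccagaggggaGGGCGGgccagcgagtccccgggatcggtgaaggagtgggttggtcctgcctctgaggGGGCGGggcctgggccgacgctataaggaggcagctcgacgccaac
Cdkn2c: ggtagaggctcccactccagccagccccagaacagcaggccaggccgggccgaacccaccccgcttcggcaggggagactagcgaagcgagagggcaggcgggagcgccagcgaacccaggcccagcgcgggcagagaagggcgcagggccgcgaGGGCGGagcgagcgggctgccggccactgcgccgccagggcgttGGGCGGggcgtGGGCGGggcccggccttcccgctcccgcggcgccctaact
The Cdkn1a stretch held 2 GC boxes and the Cdkn2c stretch 3, and neither held an E-box or any other searched motif. The other start of each gene held none of the 6 motifs. Which start was in use in these cells cannot be read from counts per gene. The promoter set used held RefSeq entries for 6 of the 10 members and none for Ccnd1, Ccnd2, Myc and Rb1. Those of Ccnd3 (2 starts, with 2 and 1 GC boxes) and Cdkn1b (1 GC box) are not printed and held no other searched motif.

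Cdkn1b (ENSMUSG00000003031), which encodes the inhibitor p27, was a low-level transcript that passed on no day. It ranged over 4.60 to 8.68 CPM in CTRL and 3.68 to 6.66 CPM in EXP on day 1, over 8.44 to 9.97 CPM and 5.72 to 8.33 CPM on day 2, and over 6.42 to 11.2 CPM and 4.53 to 10.3 CPM on day 4. The log2 fold changes were -0.36 (SE 0.25, edgeR adjusted p 0.309), -0.39 (SE 0.31, edgeR adjusted p 0.445) and -0.19 (SE 0.29, edgeR adjusted p 0.670). In CTRL on day 4 the libraries held 11.0, 11.2, 6.57 and 6.42 CPM, the lower pair being the 2 libraries on the high side of the split.

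Rb1 (ENSMUSG00000022105) was the least abundant member per exon length in every group, at 0.234 to 0.528 RPKM on average. The CTRL libraries ranged over 2.28 to 3.20, 1.56 to 2.83 and 2.07 to 4.13 CPM on days 1, 2 and 4, and the EXP libraries over 0.824 to 5.43, 0.887 to 1.83 and 1.17 to 2.29 CPM. The arms overlapped on every day, and the log2 fold changes of -0.25 (SE 0.41, edgeR adjusted p 0.686), -0.55 (SE 0.51, edgeR adjusted p 0.515) and -0.80 (SE 0.47, edgeR adjusted p 0.233) carry the largest standard errors among the members. Rcbtb2 and Lpar6, on the other strand, share 8.11% and 6.78% of its exon bases, and Rcbtb2 was higher in EXP on day 4 (log2 fold change 0.81).

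Myc (ENSMUSG00000022346) was abundant and passed on no day in the main edgeR fit. On day 1 it was at 388, 338, 377 and 294 CPM in CTRL and 389, 265, 246, 219 and 231 CPM in EXP. EXP replicate 1 stood apart from the other 4 EXP libraries, which all lay below CTRL, and the log2 fold change of -0.37 (SE 0.16, edgeR adjusted p 0.0871) did not pass. It passed without that library (adjusted p 0.00740) and, with all libraries, in limma voom with quality weights (-0.50, adjusted p 0.0101). On day 2 Myc was at 318, 385 and 301 CPM in CTRL and 297, 277 and 269 CPM in EXP, -0.25 (SE 0.20, edgeR adjusted p 0.426). On day 4 it was at 308, 243, 336 and 329 CPM and 339, 367 and 301 CPM, 0.14 (SE 0.18, edgeR adjusted p 0.607). The arms did not overlap on day 2 and did on day 4, and under plain library totals the day 2 value turned to 0.21.

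Per exon length Cdkn1a and Myc were the 2 most abundant members in all 6 groups, Cdkn1a leading in 5 and Myc in EXP on day 4. Their group means there were 106 ± 9.53 RPKM for Cdkn1a and 123 ± 12.2 RPKM for Myc (SD, n = 3), against 194 ± 47.8 RPKM and 112 ± 15.6 RPKM in CTRL (SD, n = 4). Cdk4 was the third in every group. In CTRL on day 1 Ccnd1 came next, at 13.1 ± 1.74 RPKM, close to Ccnd2 at 11.6 ± 2.08 RPKM (SD, n = 4), a gap within their spread. The order of the D-type cyclins depends on the length used. With the longest transcript their shares in that group were 34.5% for Ccnd3, 33.4% for Ccnd2 and 32.1% for Ccnd1. In EXP on day 1 Ccnd1 stood seventh, at 2.71 ± 1.02 RPKM (SD, n = 5).

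**Figure D3:**
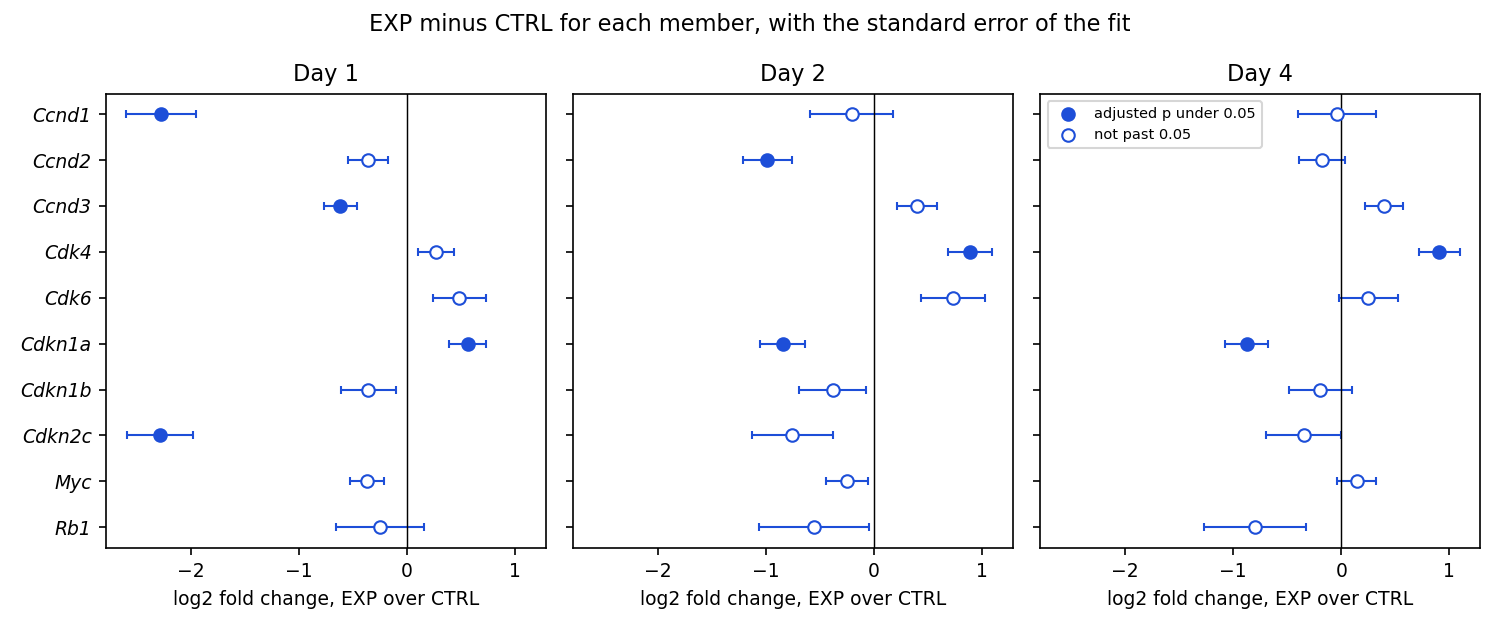
Log2 fold change of EXP over CTRL (horizontal axes) for each member on days 1, 2 and 4, with the standard error of the edgeR fit, filled where the adjusted p was under 0.05. Ccnd1 and Cdkn2c stand at -2.28 and -2.29 on day 1, Cdk4 stands at 0.89 and 0.91 on days 2 and 4, and Cdkn1a crosses from 0.56 to -0.88.

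Genes around the members were counted in 6 lists drawn up from general knowledge, with earlier results of these data known. Each count is of genes that passed the edgeR test, rising or falling in EXP against CTRL of the same day, and is given as a description. On the low side of the split on day 4, where 1 gene passed among all genes tested, 0 genes of the 6 lists passed. The counts are to be read against all tested genes, of which 13.6% rose and 14.9% fell on day 1, 7.85% rose and 5.62% fell on day 2, and 13.6% rose and 8.96% fell on day 4. In the list of the Rb, E2F and cyclin E axis, 18 genes that carry the signal on from Rb1, 2 rose and 7 fell on day 1, 3 rose and 2 fell on day 2, and 2 rose and 2 fell on day 4, the total of day 4 being near that of all genes. Over the settings other than leaving out a library the day 1 counts ran from 0 to 4 rises and from 4 to 8 falls, with medians of -0.74 to -0.15. Its medians were -0.54, 0.43 and 0.12 on the log2 scale, the day 4 one falling to -0.14 at the lowest over the other settings. On day 1 the 4 genes with the smallest p were E2f1, an activator of replication genes (-2.07, SE 0.24, edgeR adjusted p 8.38e-06, from 27.7 CPM in CTRL to 6.60 CPM in EXP), the retinoblastoma relative Rbl2 (-1.15), E2f7, a repressor made in cycling cells (-2.43), and E2f3, another activator, which rose (1.20). On day 2 E2f3 (2.24) and the kinase subunit Cks1b (1.79) were higher while Rbl2 (-1.02) and E2f1 (-0.92) were lower. The E2f1 call of day 2 was kept only without EXP replicate 2 and lost in the other 5 of 6 fits without 1 library (edgeR adjusted p up to 0.201). On day 4 Cks1b (1.68) and E2f7 (2.26) were higher and Rbl2 (-0.91) and E2f5 (-2.42) lower, the count of rises going from 2 to 4 without EXP replicate 3. The arms overlapped for E2f5, and its call was lost without CTRL replicate 4, EXP replicate 1 or EXP replicate 2 (edgeR adjusted p up to 0.0753). With plain library totals the rises numbered 7 on day 2 and 6 on day 4.

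Among the other CDK inhibitors the calls were all falls. Of 4 genes, 3 could be tested, and 2 fell on day 1, 1 on day 2 and 1 on day 4, and 0 rose in edgeR or in DESeq2 on any day. Cdkn2d, an Ink4 inhibitor, was lower on day 1, -1.20 (SE 0.18, edgeR adjusted p 8.79e-05), and on day 2, -1.14 (SE 0.22, edgeR adjusted p 0.00256). Cdkn2b, another one, was at -1.32 (SE 0.31, edgeR adjusted p 0.00358) on day 1 and -1.28 (SE 0.37, edgeR adjusted p 0.0186) on day 4, the latter lost without CTRL replicate 3 or EXP replicate 1 of that day. Cdkn1c did not pass on any day. Cdkn2a, the Ink4 gene linked to senescence, had too few counts to test, with group means of at most 0.148 CPM.

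Genes known as targets of Myc were often higher in EXP, while Myc itself was not called. Of 18, 15 were higher and 0 lower in EXP on day 1 in the main edgeR fit, with a median of 1.02. On day 2, 6 were higher (median 0.61), and on day 4, 7 were (median 0.45). Of all tested genes 13.6%, 7.85% and 13.6% were higher on days 1, 2 and 4. The 4 with the smallest p on day 1 were the ribosome assembly factor Mrto4 (1.52, SE 0.16, edgeR adjusted p 3.12e-06), lactate dehydrogenase Ldha (1.06), nucleolin Ncl (1.10) and the nucleotide kinase Nme1 (1.26). On day 1 the CTRL mean of Nme1 was 41.3 ± 14.6 CPM (SD, n = 4) and its EXP mean 98.7 ± 12.3 CPM (SD, n = 5), and it led on days 2 (1.60) and 4 (1.29), with Hspd1, Bop1 and Ldha next on both. On day 2 Bop1 lost its call without EXP replicate 1 (edgeR adjusted p 0.0717) and Ldha without CTRL replicate 2 (adjusted p 0.0508). The count of day 2 dropped to 3 without CTRL replicate 2 or EXP replicate 1, and that of day 4 to 4 without EXP replicate 1 and in the fit of day 4 alone. With plain library totals 13 were higher on day 2 and 10 on day 4. Srm, Cad and Nop58, named after their values were seen, did not pass on any day.

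Of the 13 partners and rivals of Myc, 2 rose and 2 fell on day 1, 1 fell on day 2 and 1 rose on day 4, totals near or below those of all genes. Mxd4, a rival for Max, fell on day 1 (-1.22, SE 0.15, edgeR adjusted p 1.33e-05; CTRL mean 76.1 CPM, EXP mean 32.6 CPM), and on day 2 (-1.07, SE 0.18, edgeR adjusted p 9.09e-04). The other calls of day 1 were Mxd3 (-2.30), Mxd1 (0.85) and Fbxw7, which marks Myc and cyclin E proteins for destruction (0.70). These 3 calls depended on single libraries, and Mxd3 was scarce, at means of 1.46 CPM in CTRL and 0.292 CPM in EXP. Fbxw7 lost its call in 8 of 9 fits without 1 library of day 1, all but that without EXP replicate 4 (edgeR adjusted p up to 0.131). Mxd1 lost it in 6 of 9, without CTRL replicate 1, 2 or 4 or EXP replicate 1, 4 or 5 (adjusted p up to 0.103). Mxd3 lost it in 4 of 9, without CTRL replicate 3 or EXP replicate 1, 2 or 5, its value reaching -1.16 (adjusted p up to 0.289). Mxd3 was higher on day 4 (2.43, SE 0.83, edgeR adjusted p 0.0407), a call lost in 5 of 7 fits, without CTRL replicate 2, 3 or 4 or EXP replicate 1 or 2, with the value falling to 1.33 (adjusted p up to 0.346). The list's medians of 0.10, -0.08 and -0.42 took both signs over the other settings on days 1 and 2.

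The p53 list had calls in both directions on each day. Of its 21 genes, 6 rose and 4 fell on day 1, 4 rose and 2 fell on day 2, and 4 rose and 4 fell on day 4. The falls of day 1 and the rises of day 4 were near the shares of all genes given above. On day 1, when Cdkn1a was higher, Sesn2, a stress-induced regulator of growth signalling (1.13), the nuclease Aen (1.36), Trp53, which encodes p53 (0.83), and the cell-death effector Bax (0.56) were higher. On days 2 and 4, when Cdkn1a was lower, Bax stayed higher (0.78 and 0.68) and Sesn1 was lower (-1.87 and -1.58). Aen (1.13) and Trp53inp1 (1.50) were the other leading genes of day 2, the latter losing its call without EXP replicate 3 (edgeR adjusted p 0.0704). Gdf15 (-1.70) and Fas (-1.18) were those of day 4, both lower. The 4 falls of day 1 became 1 without CTRL replicate 1 or 3 and 0 on the high side of the split, and the 4 rises of day 4 became 2 without CTRL replicate 3, CTRL replicate 4 or EXP replicate 1, 1 without EXP replicate 2 and 0 in the fit of day 4 alone, but 7 with plain library totals. The list's medians of 0.08, -0.11 and 0.31 took both signs over the other settings on days 1 and 2.

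The 10 genes of DNA replication and mitosis served as a readout of cycling cells. On day 1, 7 fell and 1 rose, with a median of -3.83; on day 2, 8 rose and 0 fell in edgeR (median 3.07); on day 4, 9 rose and 0 fell (median 2.65). Cyclin A, Ccna2, averaged 8.09 ± 4.80 CPM (SD, n = 4) in CTRL against 0.374 ± 0.259 CPM (SD, n = 5) in EXP on day 1 (-4.41, SE 0.63, edgeR adjusted p 5.49e-05) and was at 1.45 ± 1.04 CPM (SD, n = 3) and 10.8 ± 4.19 CPM (SD, n = 3) on day 2 (2.88, SE 0.72, edgeR adjusted p 0.0117), a day 2 call lost without CTRL replicate 1 or 2 (adjusted p up to 0.0589). The other leading genes of day 1 were the mitotic kinases Aurkb (-4.80) and Cdk1 (-4.25) and the proliferation marker Mki67 (-3.65). Their EXP means that day were 0.172, 0.302 and 0.466 CPM, where 3 counts come to 0.0993 to 0.140 CPM. The size of these folds thus rests on few reads. Pcna, named after its value was seen, was the 1 that rose on day 1 (0.63) and did not pass later. The replication genes Rrm2 (3.36), Mcm5 (3.65) and Mcm2 (3.26) led on day 2, and Cdk1 (3.62) and Ccnb1 (3.91) on day 4.

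Summed over these readout genes, the 3 EXP libraries of day 4 held 487, 152 and 130.3 CPM and the 4 CTRL libraries 95.3, 77.9, 58.2 and 44.2 CPM. EXP replicate 1 was far above the others, and without it 2 of the readout genes were called on day 4, against 6 in the fit of day 4 alone. On day 2 the sums were 277, 241 and 234 CPM in EXP and 41.2, 52.0 and 75.4 CPM in CTRL, the count of rises being 4 without CTRL replicate 1 and 3 without CTRL replicate 2. On day 1 they were 65.9, 54.1, 73.9, 77.0 and 65.0 CPM in EXP and 91.1, 113, 166 and 87.3 CPM in CTRL. Ccna2, Aurkb, Mki67 and Cdk1 averaged only 0.172 to 0.466 CPM in EXP that day. The EXP sums of day 1 were thus carried by more abundant genes of the list, and they do not follow its median of -3.83. The relation between the readout genes across libraries was not tested.

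**Figure D4:**
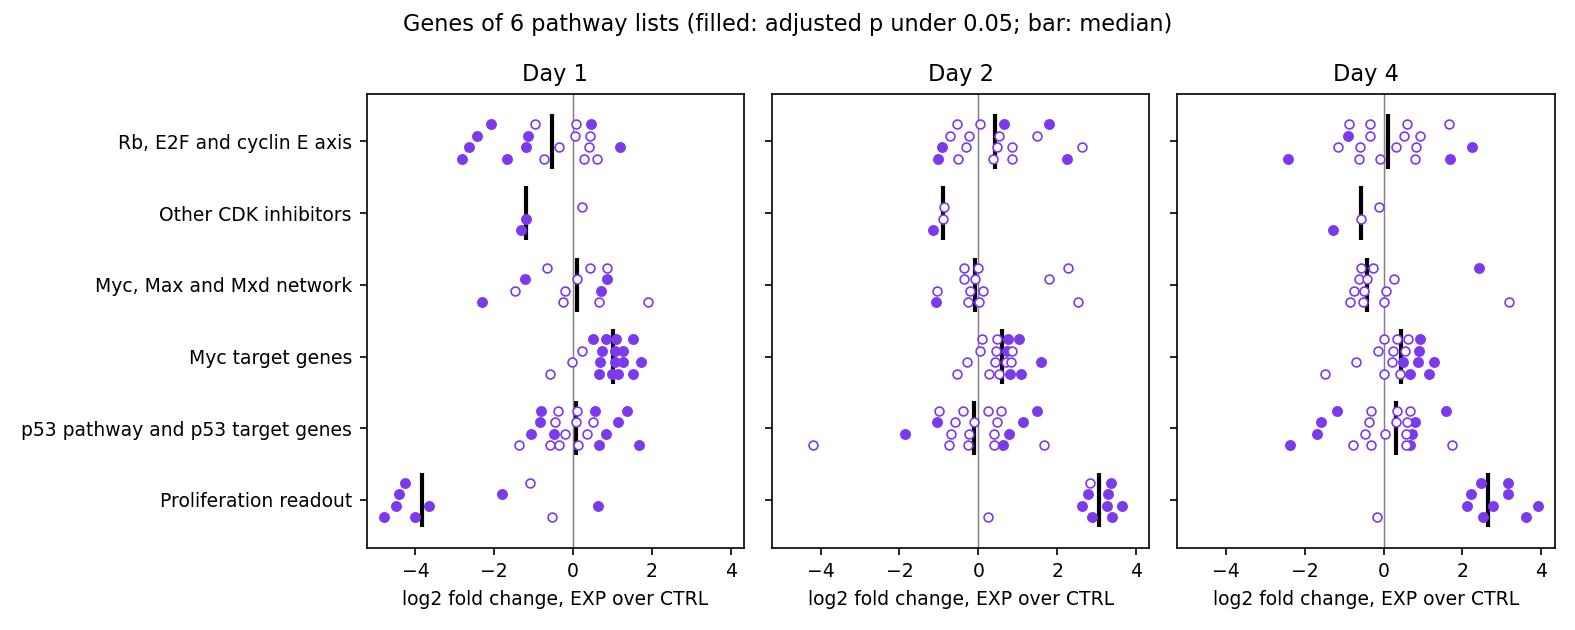
Log2 fold change of EXP over CTRL (horizontal axes) for every tested gene of the 6 lists (rows) on days 1, 2 and 4, filled where the edgeR adjusted p was under 0.05, with a vertical bar at the list's median. The median of the proliferation readout goes from -3.83 on day 1 to 3.07 on day 2, and that of the Myc targets is above 0 on all 3 days.

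The genes most like each member were those with the highest Pearson correlation of log2 CPM over the 22 libraries, given as a description, since all points share the 6 groups and their differences in composition. For Cdk4 they were Lap3 (0.96), Ndufa10 (0.96) and Pgk1-rs7 (0.94), the highest values of any member. Lap3 encodes an aminopeptidase and Ndufa10 a subunit of the respiratory chain, and Pgk1-rs7 is a copy of Pgk1 whose counts may be shared with it. For Ccnd1 they were Cd109 (0.90), Bace1 (0.89) and Copg2 (0.87), and for Cdkn2c Mpv17 (0.92), Adamtsl4 (0.92) and Phkb (0.90). For Ccnd2 they were Sar1a (0.89), Creb3 (0.88) and Sdf4 (0.87), and for Ccnd3 BC029722 (0.86), Ccn5 (0.85) and Rab1b (0.84). Cdkn1a was closest to Tob2 (0.84), Eif1 (0.84) and Arid4b (0.84). For Myc, Cdk6, Cdkn1b and Rb1 the best value was between 0.79 (Rb1 with Bmpr1a) and 0.82 (Cdkn1b with Irf2), with Zfp93 for Myc and Prok2 for Cdk6. None of the 3 genes closest to any member was another member or a gene of the 6 lists.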

How the data were processed

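Whole-gene read counts of 22 libraries of sorted mouse skin fibroblasts were used as deposited by the authors, in 1 table of 55414 genes, of which 52081 were named through the GENCODE M21 annotation. Trimmomatic and the mm39 build are named in the submitters' processing notes, and the aligner, the counter, its annotation and its use of strand are not given in the sources used here. Counts were fitted with edgeR 4.0.16 (TMM scaling, robust quasi-likelihood test, R 4.3.3) in 1 model with a mean for each of the 6 groups, over the 17554 genes that passed filterByExpr at a minimum count of 10. P-values were adjusted by Benjamini-Hochberg over those genes, and an adjusted p under 0.05 was called. The fit was tested on simulated counts first. CPM values were TMM-scaled, and log2 CPM used a prior count of 2. At these depths 3 counts came to 0.0993 to 0.140 CPM. RPKM used M21 exon lengths, and promoters came from RefSeq on GRCm38.p6, so no gene coordinates are given on mm39. Alternatives were DESeq2 1.42.0, its size factors, limma 3.58.1 voom, plain totals, no filter, a replicate block, single days or arms, the library split and leaving out each library. Each pathway list named up to 4 genes with the smallest p in a comparison, and each member its 3 closest genes. The members and lists were chosen with earlier results of these data known.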

Additional observations from a re-analysis of the deposited data

Results flagged for a closer look

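Dixon's test at the 95% level was applied to the 10 members in the 3 groups of 4 or 5 libraries, and a library stood apart from its group in 3 of those 30 sets, where chance would give 1.5 (about 1 in 20). The sets were Ccnd3 in CTRL on day 4, with replicate 3 the highest at 65.2 CPM, Cdk4 in EXP on day 1, with replicate 1 the lowest at 95.8 CPM, and Myc in the same EXP library, the highest at 388.6 CPM. The remaining results that call for a second look are differences of the EXP effect between days, by the joint edgeR test. Its adjusted p was 0.00804 for Ccnd1, 0.00988 for Ccnd3, 0.00193 for Cdkn1a and 0.0200 for Cdkn2c.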

How the results depend on the processing

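Over the settings other than leaving out a library, 14 of 490 results on single members lost their call, 17 gained one and 0 of those called reversed, while 7 uncalled values changed sign. Over fits without 1 library, 6 of 660 lost their call, 13 gained one and 0 of those called reversed, while 7 uncalled values changed sign. The members called went from 4 to 2 on day 1 on 1 side of the library split, from 3 to 5 on day 2 with limma voom, and from 2 to 0 on day 4 in the fit of that day alone and on 1 side of the split. Within CTRL the count went from 0 to 2 with DESeq2, 3 with limma voom and 1 in the fit of that arm alone. Without 1 library the counts were 3 to 5 on day 1, 2 to 3 on day 2, 2 to 3 on day 4, 3 to 5 for differences between days, 2 to 4 within EXP (4 without EXP replicate 3 of day 4) and 0 to 2 within CTRL (2 without CTRL replicate 3 of day 4). The cause was not tested.

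Same-numbered libraries of both arms deviated together with correlations of -0.0667 to 0.164 on day 1, -0.0632 to -0.0044 on day 2 and 0.0793 to 0.147 on day 4, so they were taken to share only a number. Each library correlated best with its own number in 3 of 8 cases on day 1, 0 of 6 on day 2 and 6 of 6 on day 4, a hint from the data and not the design. With the replicate number within a day as a block, members whose effect differed between days went from 4 to 2. Ccnd3 then had an edgeR adjusted p of 0.0819 and Cdkn2c of 0.105, and the day 1 adjusted p of Cdkn1a went to 0.0874. Tests within an arm used the bare number as a block over all days, which the labels do not link. With it, members that changed within EXP went from 2 to 1.

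Counts over all genes moved by more than 1.5 times as follows, with fits that left out 1 of the libraries compared. On day 1 they went from 5003 to 2221 on 1 side of the split. On day 2 they went from 2365 to 4632 with plain totals and 4544 with limma voom, and to 895 to 2152 without 1 library. On day 4 they went from 3962 to 1101 in that day alone and 1 on 1 side of the split, and to 1630 to 5011 without 1 library. For differences between days they went from 1517 to 2606 with DESeq2, 2297 with limma voom and 392 with the block, and to 893 to 2552 without 1 library. Within EXP they went from 2478 to 1471 with the block, 1334 in that arm alone and 1297 to 3342 without 1 library. Within CTRL they went from 53 to 519 with DESeq2, 163 with plain totals, 564 with limma voom, 21 with the block, 326 in that arm alone, 22 with the split as a covariate and 5 to 84 without 1 library. With plain totals, 4191 genes were higher and 441 lower on day 2, against 1378 and 987 with TMM. The corresponding counts were 3397 and 1732 on day 1, against 2392 and 2611, and 4271 and 1018 on day 4, against 2390 and 1572. The longest-transcript alternative for the cyclin shares was chosen after seeing the data.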
